A study of Mus musculus with 8 samples.

Results

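The genes described here are 10 noncoding genes of the mouse, namely Snhg1, Snhg3, Snhg5, Snhg6, Snhg8, Snhg12, Gas5 and Epb41l4aos, which carry small nucleolar RNAs (snoRNAs) in their transcripts, and the nuclear RNA genes Malat1 and Neat1. They were listed by name and all 10 were found in the GENCODE annotation of mm10. Their ASH2L sites were those of the deposited list that were centred within 1 kb of any annotated transcription start site (TSS) of the gene or that overlapped the gene, and 22 of the 6444 sites met this. The sites came from chromatin immunoprecipitation and sequencing of iMEF cells, an immortalized line of mouse embryo fibroblasts. In these cells the endogenous Ash2l had been deleted with an inducible Cre-ER recombinase and a human ASH2L fused to the degradation tag FKBP and to an HA epitope, delivered by lentivirus, had taken its place, so untreated and treated cells alike depended on the fusion protein. The study worked mainly with NG3, which is 1 clone. The 8 libraries were 2 ASH2L precipitates and 2 inputs of cells without dTAG, and the same of cells given dTAG for 1 h, a compound that brings the tagged protein to a ubiquitin ligase.

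The list pools all samples and gives each site a chromosome, a start and an end. It holds no read count, no peak height and no value per library, so depth, replicate error and the loss of ASH2L with dTAG are not shown at any gene below, and no comparison carries a test. The lengths, offsets and shares below describe 1 list. Of its sites, 6428 lay on the 21 assembled nuclear chromosomes and are the background used here. Their median width was 268 bp, and 19.9% had exactly 200 bp, the smallest width in the list. Since no signal of the precipitates or the inputs is given, the excess of ASH2L reads over input at a site is not shown either.

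ASH2L is a core subunit of the KMT2 complexes, which methylate lysine 4 of histone H3, a mark of active promoters. The Snhg genes and Gas5 are unusual in that the snoRNAs in their introns, rather than the spliced transcript, are the conserved product. Box C/D snoRNAs (Snord) guide 2′-O-methylation and box H/ACA snoRNAs (Snora) guide pseudouridylation of ribosomal RNA. Many host genes start within a run of pyrimidines, as do the genes for ribosomal proteins, and the spliced RNAs of several, Gas5 among them, are turned over by nonsense-mediated decay. Malat1 RNA accumulates in nuclear speckles, and Neat1 RNA is the scaffold of paraspeckles.

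Sites at 4 of the host genes, namely Snhg1, Snhg3, Snhg8 and Gas5, overlapped an annotated snoRNA. These sequences are shown because they place the sites inside the transcribed host and not at its outermost start. They were read from GRCm38.p6 (mm10) on the strand of the host gene, and capitals mark the bases of the snoRNA. The sites of Snhg1 and Snhg3 are whole, whereas 300 bases of the wider sites of Snhg8 and Gas5 are given, those of Snhg8 starting inside Snora24 at the edge of the site.
Snhg1 site with Gm24453, chr19:8724705-8724904, plus strand: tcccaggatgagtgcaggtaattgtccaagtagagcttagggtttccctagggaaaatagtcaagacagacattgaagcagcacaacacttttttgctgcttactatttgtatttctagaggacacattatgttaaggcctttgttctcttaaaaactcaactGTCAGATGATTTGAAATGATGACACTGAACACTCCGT
Snhg3 second site with Snora73a, chr4:132352812-132353059, minus strand: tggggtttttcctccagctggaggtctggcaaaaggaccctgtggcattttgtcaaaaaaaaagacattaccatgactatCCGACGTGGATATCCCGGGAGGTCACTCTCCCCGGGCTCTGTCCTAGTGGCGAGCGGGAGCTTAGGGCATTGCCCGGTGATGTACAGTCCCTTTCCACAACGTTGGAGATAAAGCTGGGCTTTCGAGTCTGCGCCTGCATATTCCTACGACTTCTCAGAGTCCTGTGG
Snhg8 site with Snora24, chr3:123507729-123508028, minus strand: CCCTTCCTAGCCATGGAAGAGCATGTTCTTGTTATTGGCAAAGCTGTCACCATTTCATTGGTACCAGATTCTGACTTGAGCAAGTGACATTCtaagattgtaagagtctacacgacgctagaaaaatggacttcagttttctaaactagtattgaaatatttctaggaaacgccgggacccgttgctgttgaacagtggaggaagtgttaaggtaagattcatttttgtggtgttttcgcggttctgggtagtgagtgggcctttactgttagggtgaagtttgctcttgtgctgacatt
Gas5 first site with Gm26224, chr1:161035284-161035583, plus strand: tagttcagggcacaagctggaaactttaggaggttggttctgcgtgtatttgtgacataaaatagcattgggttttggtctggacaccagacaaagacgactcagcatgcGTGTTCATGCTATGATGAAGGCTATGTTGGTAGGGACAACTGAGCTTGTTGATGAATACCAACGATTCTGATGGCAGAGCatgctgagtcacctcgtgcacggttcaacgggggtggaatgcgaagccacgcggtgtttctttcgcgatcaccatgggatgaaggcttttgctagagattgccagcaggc
Gas5 second site with Gm23212, chr1:161036562-161036861, plus strand: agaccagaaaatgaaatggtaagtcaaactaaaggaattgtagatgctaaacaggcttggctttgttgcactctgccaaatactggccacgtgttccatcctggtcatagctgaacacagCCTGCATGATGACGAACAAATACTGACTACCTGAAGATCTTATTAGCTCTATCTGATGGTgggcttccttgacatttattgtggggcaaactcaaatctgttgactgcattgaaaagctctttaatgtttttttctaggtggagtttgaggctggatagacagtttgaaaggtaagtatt

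Of the 10 genes, 8 had at least 1 promoter site, that is a site centred within 1 kb of an annotated TSS. Snhg12 and Epb41l4aos had none. The same rule was met by 6.90% of all 55413 annotated genes, by 14.0% of protein-coding genes and by 4.50% of the 10155 long noncoding genes. The members have from 2 to 20 annotated TSSs each. Among long noncoding genes with 2 or more TSSs the share was 7.15%, and among those whose TSS had a CpG island no farther than 1 kb it was 9.71%. Counting the outermost start of each gene alone, 7 of the 10 members kept a site within 1 kb, Snhg1 being lost. By this count the share of long noncoding genes was 4.30%. Within 500 bp of that start 4 members had a site, and within 300 bp 3 did. Both narrower settings were chosen after the data were seen, and the share of all genes was not counted for them. The members themselves were chosen with earlier results of these data known.

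**Figure D1:**
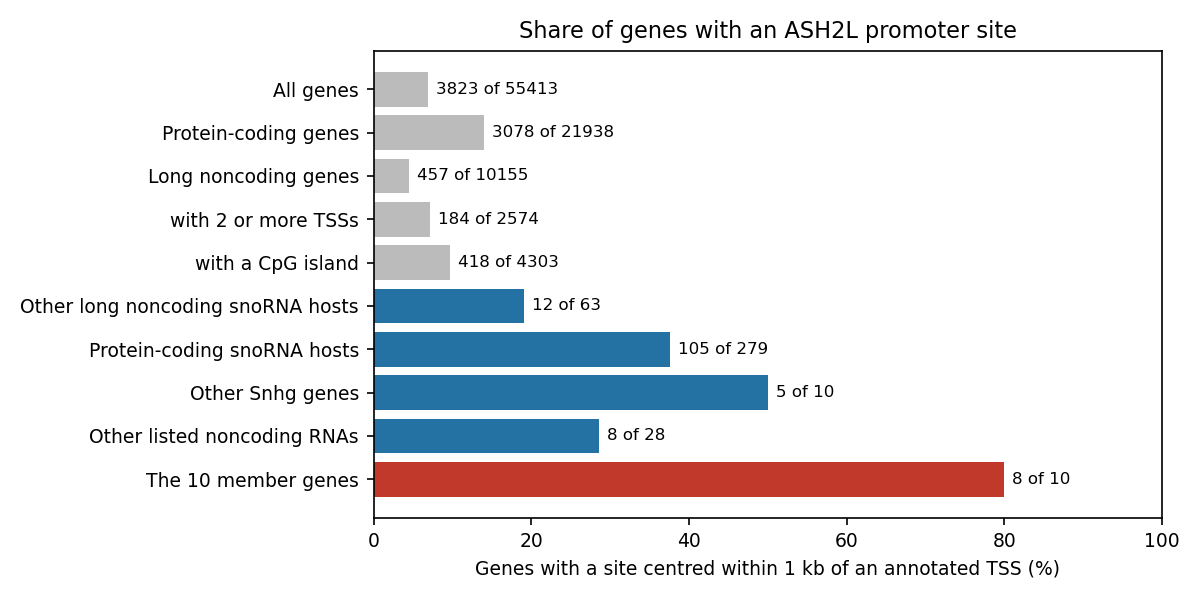
Share of genes with an ASH2L site centred within 1 kb of an annotated TSS (horizontal axis, percent) by class of gene (vertical axis), with the numbers of genes beside each bar. Grey bars are background classes, blue bars are related lists and the red bar is the 10 genes described here, 8 of which had such a site.

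The snoRNA hosts among the members had 10 sites in all, at 6 of 8 genes. Long noncoding hosts as a class, the members among them, had a promoter site in 25.4% of 71 genes, and of the 63 hosts that are not members 12 had a promoter site. Protein-coding hosts had one in 37.6% of 279 genes. Within these the ribosomal protein genes that host a snoRNA had one in 22 of 30 cases and the other protein-coding hosts in 83 of 249. Each of these shares was above that of all long noncoding or all protein-coding genes, in a description without a test.

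Gas5, named for its rise in growth-arrested cells, had the widest sites of the 8 member hosts. The gene lies at chr1:161034422-161038539 on the plus strand, has 20 annotated TSSs and contains 10 snoRNA entries, among them Snord47, Snord78 and Snord80. Its first site, chr1:161035133-161035684, was 552 bp wide and was centred 986.5 bp downstream of the outermost start, but it began 33 bp before the TSS at 161035166, which sits in a dense group of annotated starts. Its second site, chr1:161036305-161036960, was 656 bp wide and was centred 2210.5 bp into the gene, at an offset of -62.5 bp (negative is upstream) from an internal TSS. The first site covered all 80 bases of the snoRNA Gm26224 and the second all 60 bases of Gm23212. Together both sites covered 29.3% of the gene. Their bases all lay in an exon of at least 1 annotated transcript, and by this count over all transcripts the 10 snoRNA entries of Gas5 are exonic too, although other annotated transcripts splice them out with the introns.

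Snhg6 (chr1:9941959-9944118, minus strand) had a site that contained its start. This site, chr1:9943624-9944122, was 499 bp wide, reached 4 bp upstream of the outermost TSS and had 42 CpGs and a GC content of 60.9%, the highest of the 22 sites. A second site of 446 bp, chr1:9942810-9943255, was centred 1085.5 bp into the gene, at an offset of -135.5 bp from an internal TSS, with a GC content of 48.2%. Snord87, the C/D snoRNA of this host, lay 261 bp from the nearer site. Sites covered 43.6% of Snhg6.

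Snhg3 (chr4:132348014-132353686, minus strand) carries Snora73a and Snora73b, H/ACA RNAs that act in the processing of ribosomal RNA. It shares its start region with Rcc1, which encodes the nucleotide exchange factor of the GTPase Ran and is transcribed on the same strand, so the sites cannot be assigned to either gene by position. The first site, chr4:132353274-132353486, had 213 bp and was centred 306.0 bp downstream of the outermost start. The second, chr4:132352812-132353059, had 248 bp, was centred 750.5 bp downstream and covered 168 of the 205 bases of Snora73a. Snora73b, of the same length, lay 286 bp from it.

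Snhg5 (chr9:88521050-88522929, minus strand) had 2 narrow sites, of 201 bp at chr9:88522538-88522738 and of 200 bp at chr9:88521923-88522122. They were centred 291.0 and 906.5 bp downstream of the outermost start. Neither reached its C/D snoRNAs, Snord50b lying 55 bp and Snord50a 323 bp from the second site. Snhg8 (chr3:123507552-123508404, minus strand), the shortest member with 853 bp, had 1 site of 430 bp at chr3:123507599-123508028, which covered 50.4% of the gene and 92 of the 130 bases of Snora24. That site was centred 590.5 bp downstream of the outermost start and no annotated TSS of Snhg8 was nearer than 516.5 bp to its centre.

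Snhg1 (chr19:8723475-8726443, plus strand) had a single site of the minimum width, chr19:8724705-8724904, in the middle of its 8 snoRNAs. The site was centred 1329.5 bp into the gene and counted as a promoter site only through internal TSSs. Its offset from the nearest of these was -92.5 bp. It had 1 CpG and a GC content of 39.5%, and it covered 37 of the 76 bases of Gm24453. No site lay at the start of Snhg1.

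**Figure D2:**
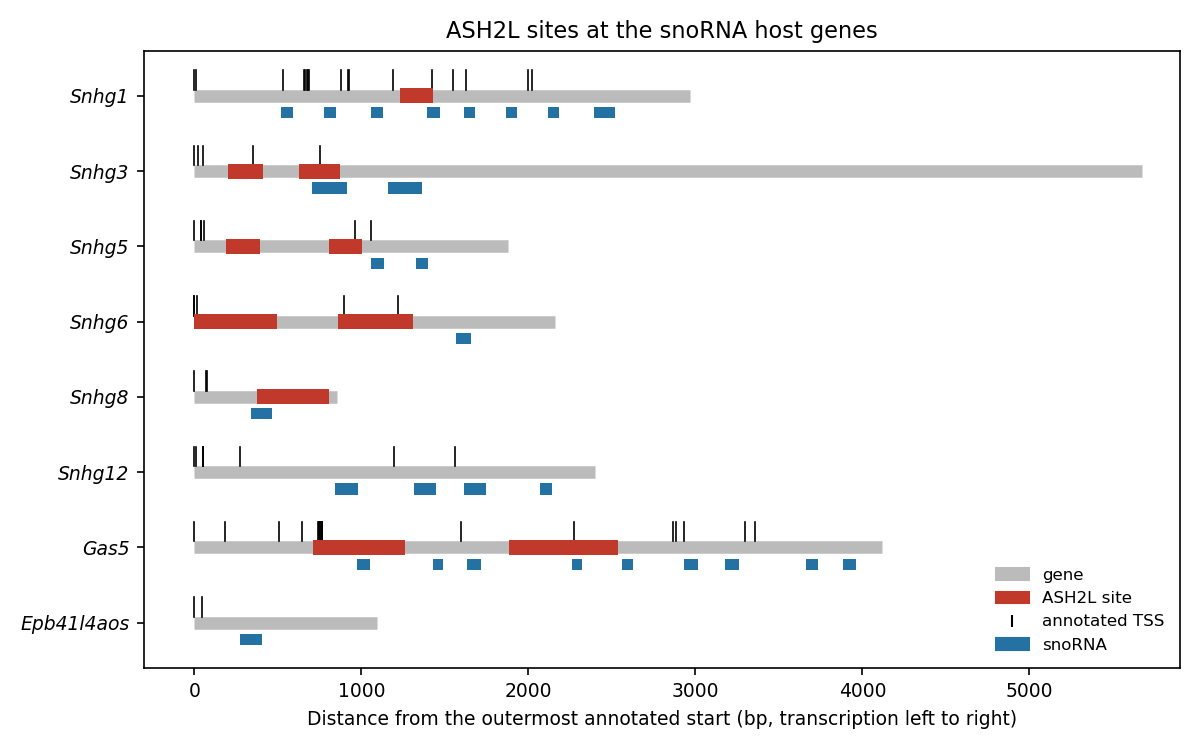
ASH2L sites (red) on the 8 snoRNA host genes (grey bars), drawn to scale from the outermost annotated start with transcription from left to right (horizontal axis, bp). Black ticks are annotated TSSs and blue boxes are snoRNAs, and the sites of Snhg1, Snhg3, Snhg8 and Gas5 overlap 1 or 2 of these, whereas Snhg12 and Epb41l4aos have no site.

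A divergent start was found at 3 members, which share a start region with a divergent gene, that is a gene on the other strand whose TSS lies within 1 kb upstream, against 16.2% of long noncoding genes. Snhg1 starts 106 bp from Slc3a2, which encodes the heavy chain of an amino acid transporter, and neither gene had a site at this shared start. Gas5 has a TSS 80 bp from one of Zbtb37, which encodes a BTB zinc finger protein, and the first Gas5 site was centred 559.5 bp from the nearest Zbtb37 TSS, so that it was counted for both genes. Neat1 has a TSS 145 bp from one of the antisense gene Frmd8os, and its start site was centred 297.0 bp from the nearest TSS of Frmd8os. In both pairs with a site, that site was centred inside the noncoding member.

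All 17 promoter sites of the members were centred downstream of the outermost start of their gene, and 14 of them by more than 300 bp. Malat1 supplied 6 of the 17, centred from 503.0 to 6171.5 bp downstream and counted in part through TSSs far inside the gene. Over all 4511 pairs of a gene and a promoter site, 73.3% were centred downstream and 41.1% by more than 300 bp. These pairs were not matched to the members for the number or span of TSSs. Measured from the nearest annotated TSS, the median offset of the 17 sites was -44.0 bp, whereas from the outermost start it was 986.5 bp. With only the transcripts tagged basic in the annotation, the median from the nearest TSS was 216.5 bp, so its direction depends on the starts used. Over all 3377 promoter sites, each taken from its nearest TSS of any gene, the median was 68 bp downstream. Among all genes with a promoter site, 89.5% had one within 1 kb of the outermost start, and 7 of the 8 members did. Of the 64 annotated TSSs of these 8 members 22 lay inside a site, compared with 26.4% of the TSSs of all genes with a promoter site.

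**Figure D3:**
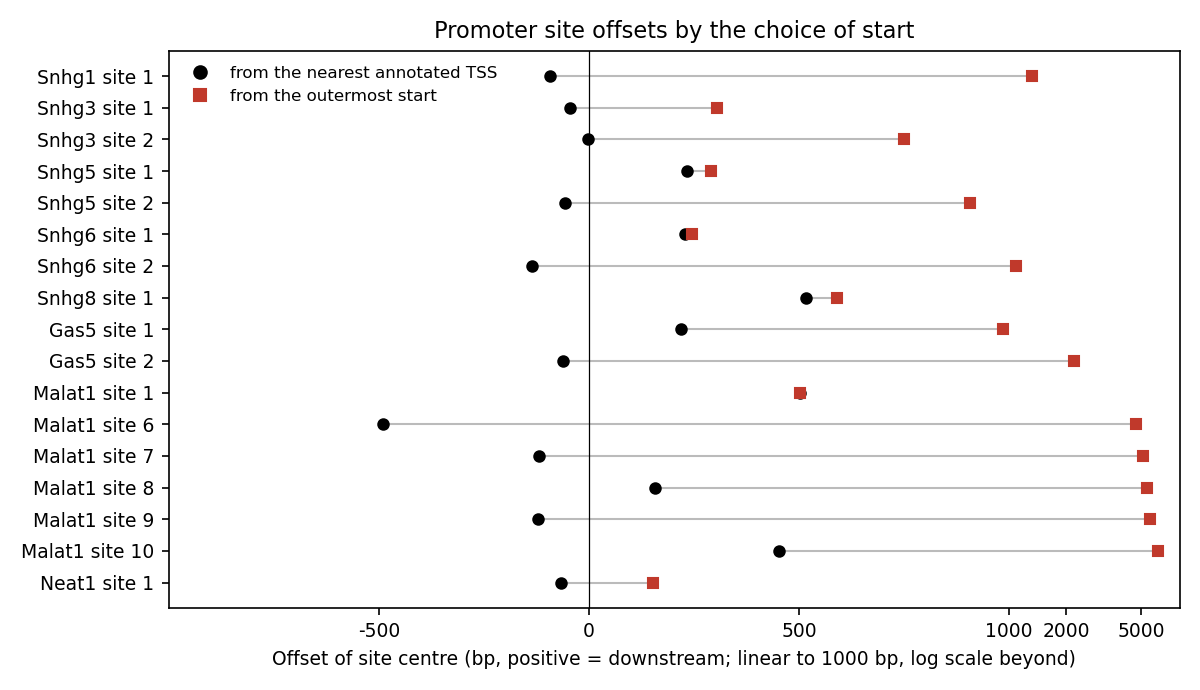
Offset of the centre of each of the 17 promoter sites (vertical axis) from the nearest annotated TSS of its gene (black circles) and from the outermost start (red squares), in bp with downstream positive, linear up to 1000 bp and logarithmic beyond. The circles fall on both sides of 0 with a median of -44.0 bp, and the squares are all positive.

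Start sequences with a pyrimidine run were looked for as a C at the annotated TSS followed by at least 4 further pyrimidines. This was met by 8 of 74 member TSSs and by 2.04% of all annotated TSSs. The 8 lay in 6 of the 10 genes, namely Snhg3, Snhg5, Snhg6, Snhg8, Snhg12 and Gas5. The share of all genes with such a TSS was not counted, so the 6 genes have no background. The windows below, of 60 bases with the run in capitals after 30 bases upstream, are shown because the sites are placed against them in what follows. The inner Snhg8 start lies 3 bp upstream of its annotated TSS, so it does not meet this rule and no site is placed against it.
Snhg3 start, chr4:132353604-132353663, minus strand: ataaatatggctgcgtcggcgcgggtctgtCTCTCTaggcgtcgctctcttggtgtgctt
Snhg5 start, chr9:88522859-88522918, minus strand: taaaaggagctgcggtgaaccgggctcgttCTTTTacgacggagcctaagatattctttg
Snhg6 start, chr1:9944089-9944148, minus strand: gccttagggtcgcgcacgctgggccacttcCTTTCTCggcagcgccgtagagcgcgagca
Snhg8 outermost start, chr3:123508375-123508434, minus strand: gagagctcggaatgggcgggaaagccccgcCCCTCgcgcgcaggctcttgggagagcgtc
Snhg8 inner start, chr3:123508307-123508366, minus strand: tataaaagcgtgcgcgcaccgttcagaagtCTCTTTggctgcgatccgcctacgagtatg
Snhg12 start, chr4:132308646-132308705, plus strand: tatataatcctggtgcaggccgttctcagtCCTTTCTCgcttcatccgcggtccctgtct
Gas5 upstream start, chr1:161034899-161034958, plus strand: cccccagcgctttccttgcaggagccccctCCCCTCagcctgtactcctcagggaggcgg
Gas5 downstream start, chr1:161035136-161035195, plus strand: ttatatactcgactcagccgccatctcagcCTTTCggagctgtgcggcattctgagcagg

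The sites stood differently to these pyrimidine starts. The first Snhg6 site and the first Gas5 site contained one, reaching 4 and 33 bp upstream of it. The other pyrimidine start of Gas5, at 161034929, lay outside, 204 bp before the edge of that site. The first sites of Snhg3 and Snhg5 began 147 and 150 bp downstream of theirs, and the Snhg8 site began 376 bp downstream of its outermost start. Snhg12, with a run of 8 pyrimidines from its annotated TSS on, had no site. When the C was allowed within 5 bp of an annotated TSS, 23 of the 74 member TSSs met the rule, beside 16.6% of all annotated TSSs. Neighbouring TSSs, such as those of Gas5, can share the same run, so the 23 are not all separate runs. Each of the 10 members had at least 1 such TSS. A gene with many TSSs can meet the rule more easily, and the share of all genes that met it was not counted.

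CpG islands were computed from windows of 200 bp in which over 50% of bases were G or C and CpGs exceeded 0.6 of the number expected from these. Such an island lay no farther than 1 kb from a TSS in all 10 members and in 42.4% of long noncoding genes. Snhg12 and Epb41l4aos, without a site, were among these. An island overlapped a promoter site in 7 of the 8 members that had one, Snhg1 being the exception. Counted by site, however, 8 of the 17 promoter sites of the members overlapped an island, whereas 89.0% of all promoter sites did. Malat1 accounted for much of this with 1 of 6, and the other members had 7 of 11. Over all sites of the list, promoter and other, the share was 51.9%, beside 11 of 22 for the members. The 11 member sites outside islands had GC contents between 37.5% and 51.6%, and those on islands between 41.4% and 60.9%.

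Of the 30 snoRNA entries inside the members, 5 were overlapped by a site, 1 each in Snhg1, Snhg3 and Snhg8 and 2 in Gas5. Over all 695 snoRNA and small Cajal body RNA genes inside a coding or long noncoding gene on the same strand, 1.87% were overlapped, and for the 213 whose host had a promoter site 6.10%. The members' 5 are part of the 13 counted in both shares, and 8 of the 665 others were overlapped. The overlapped snoRNAs began between 338 bp (Snora24) and 2260 bp (Gm23212) downstream of the outermost start of the host. A further 6 entries came within 200 bp of a site without being overlapped by it.

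Malat1 (chr19:5795690-5802672, minus strand) held 10 of the 22 sites. They lay across the whole gene of 6983 bp, from 503.0 to 6171.5 bp downstream of the outermost start, and covered 45.3% of it. Their widths ran from 200 bp, in 3 sites, to 863 bp in the third, chr19:5800100-5800962. The gaps between neighbouring sites were between 35 and 712 bp, and those from the sixth to the ninth site were 94, 67 and 35 bp. No site contained the outermost start, the first, chr19:5801992-5802346, being centred 503.0 bp downstream of it. Only that site and the 5 near the internal TSSs at 5797464 and 5796952 counted as promoter sites, and 4 were more than 1 kb from every Malat1 TSS. All 10 lay fully within exons. Whether ASH2L reads exceeded input reads over Malat1 is not shown by the list and was not tested.

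**Figure D4:**
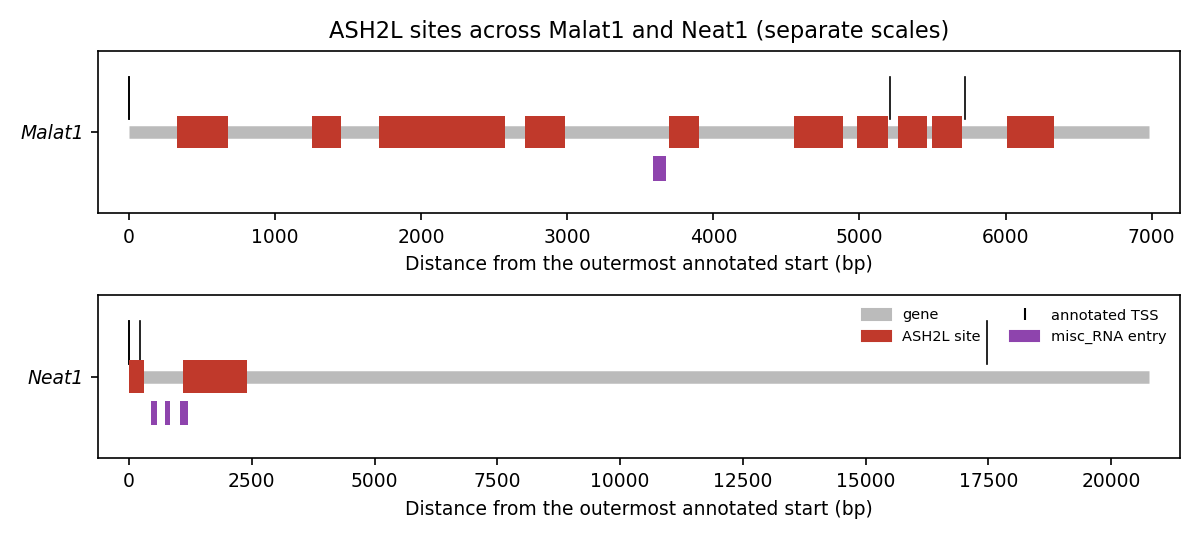
ASH2L sites (red) on Malat1 and Neat1 (grey bars), each on its own scale of distance from the outermost annotated start (horizontal axes, bp), with annotated TSSs as black ticks and small misc_RNA entries in purple. Malat1 has 10 sites over its length of 6983 bp, and the 2 sites of Neat1 lie at its 5′ end.

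By number of sites Malat1 ranked 11 among 32093 coding and long noncoding genes and 1 among the 10155 long noncoding genes. Of the 4442 genes of any type with a site inside, 0.315% had 10 or more. Most of the others are long, such as Foxp1 with 16 sites in 597384 bp. Per length Malat1, with 1.43 sites per kb, ranked 1 of the 23409 genes of at least 5 kb, ahead of Cdkn1b with 1.17 and Hoxa7 with 0.815. This rests on sites being counted as listed. Merged within 1 kb, the 10 sites of Malat1 became 1, and with 0.143 merged sites per kb the gene ranked 179. By the share of the gene covered by sites it ranked 15 of the same genes, and Hoxa10, with 7 sites, was covered to 80.1%. Among windows of 6983 bp that began at a site centre, none held more than the 10 sites of Malat1, and the only other window with as many lay over Hoxd13. These comparison genes were chosen after their values were seen.

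**Figure D5:**
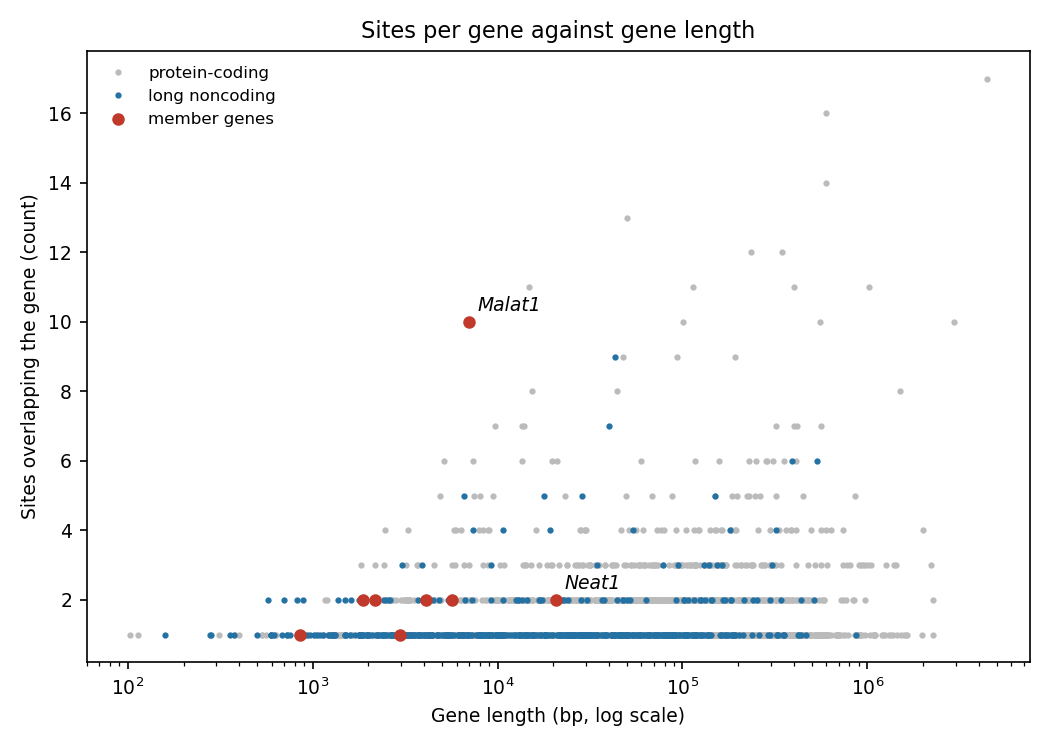
Number of sites overlapping a gene (vertical axis) against gene length (horizontal axis, bp, log scale) for every coding (grey) and long noncoding (blue) gene with at least 1 site, members in red. Malat1, with 10 sites in 6983 bp, has the most sites per kb of the genes of at least 5 kb, and the remaining members shown have 1 or 2.

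Neat1 (chr19:5824708-5845478, minus strand), which lies next to Malat1 and is longer, had 2 sites. The start site, chr19:5845166-5845486, was 321 bp wide, contained the outermost TSS at 5845478 and was centred 152.0 bp downstream of it. The other, chr19:5843072-5844387, was the widest of the 22 with 1316 bp, had 30 CpGs and was centred 1748.5 bp downstream of the outermost start. It covered 102 of the 152 bases of the small RNA entry Gm27533. The rest of the gene was without a site, and sites covered 7.84% of its whole length of 20771 bp. Neat1 had 0.0963 sites per kb compared with 1.43 for Malat1.

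Snhg12 and Epb41l4aos had no site in or near the gene. Snhg12 (chr4:132308623-132311024, plus strand) has 8 annotated TSSs and hosts Snora44, Snora61, Snord99 and Snora16a, the last annotated as 2 entries. The nearest site of the list was centred at an offset of -38440.5 bp from its nearest TSS. Snhg3 lies in the same region of chromosome 4 and had 2 sites. For Epb41l4aos the nearest site was centred 141389.5 bp downstream. Absence from the list is not absence of ASH2L, since the limit of detection is not shown.

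The widths of the 17 promoter sites of the members ran from 200 to 656 bp with a median of 320 bp. All promoter sites had a median of 304 bp, and their middle part, between the quartiles, ran from 230 to 423 bp. Over all 22 sites the median was 295 bp. Sites of the minimum width made up 5 of the 22, 3 in Malat1 and 1 each in Snhg1 and Snhg5, against 19.9% of all sites.

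Parts of some sites also occur elsewhere in the genome. In 17 of the 22 sites no stretch of 31 bases had an exact further copy on the assembled chromosomes. The second Snhg3 site over Snora73a had such copies for 33.5% of its stretches, the first Malat1 site for 29.8%, the ninth Malat1 site for 24.7% and the second Snhg5 site for 20.6%. Over all sites of the list 8.12% exceeded 10%. Whether reads from the copies contributed to these sites was not tested.

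Short motifs were searched on both strands in 300 bp around the outermost start of each gene (250 bp before it and 50 bp from it on) and in 200 bp around each site centre. The TATA box (TATAAA) was found in the start windows of 5 members, Snhg1, Snhg3, Snhg5, Snhg8 and Neat1, and in 17.1% of those of all genes. The CCAAT box (CCAAT) was found in 3, Snhg3, Snhg5 and Snhg8, against 38.4%. The ETS motif (CCGGAAGT) was found at Snhg3 alone, against 2.37%, and the SP/KLF motif (CCCCGCCCC) at Snhg8 alone, against 6.95%. The E-box (CACGTG), the CRE (TGACGTCA), the NRF1 core (GCGCATGCG) and the AP-1 motif (TGACTCA) were in no member start window, against 5.37%, 1.27%, 1.17% and 4.74%. In the site windows CCAAT was the most frequent with 8 of 22, against 17.0% of all sites, and 5 of the 8 were in Malat1. The E-box was in 1 member site, the second of Gas5, against 2.80%, and AP-1 was in the first Gas5 site and the third Malat1 site, against 6.14%. TATAAA was in 2 site windows, the first of Malat1 and the first of Neat1, against 7.56%. A match is a run of letters and not a bound factor.

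The other long noncoding hosts with a promoter site, beside those with a Snhg symbol and Zfas1, were Cct6a, 2310014F06Rik, 2410006H16Rik, A430035B10Rik, 1110038B12Rik, Rab26os, Gm29170 and AC121821.1, with widths from 246 to 622 bp. Related genes from further lists, chosen with earlier results of these data known, were counted in the same way. Beside them stand the shares of 14.0% of all protein-coding and 4.50% of all long noncoding genes given above. Of 10 other Snhg genes found, 5 had a promoter site, namely Snhg9, Snhg17, Snhg20, Snhg7os and Zfas1, with widths from 270 to 579 bp, and each was within 1 kb of the outermost start. Of 19 genes for snoRNP proteins and their assembly 4 had one, the C/D protein gene Nop56, the H/ACA protein genes Nop10 and Gar1, and Znhit3. Of 9 genes for nonsense-mediated decay factors, which degrade host transcripts, 6 had one, Upf1, Upf2, Upf3a, Upf3b, Smg1 and Smg6. Of 7 paraspeckle protein genes 4 had one, Sfpq, Hnrnpk, Tardbp and Ewsr1. Of 28 further noncoding genes, not all of them long, 8 had one, Dleu2, Tug1, Mir17hg, Hottip, Jpx, Rmrp, Rpph1 and Rn7sk, the widest being that of Dleu2 with 1688 bp. The widest promoter sites of protein-coding snoRNA hosts were at Nbea with 2318 bp, Rps12 with 1497 bp, Kpna4 with 1242 bp, Rps20 with 981 bp and Rptor with 905 bp. The sites of Rps12 and Rps20, which encode ribosomal proteins, also overlapped a snoRNA each. Among noncoding genes outside the lists the widest were at 2810410L24Rik with 3514 bp, Hoxa11os with 3087 bp and Gm28309 with 2847 bp, all beyond the 1316 bp of the widest member site.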

How the data were processed

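ChIP-seq reads of 8 libraries (4 groups, 2 replicates each) were trimmed by the authors with Trim Galore, aligned to mm10 with BWA and filtered with SAMtools. Replicates were merged with Picard, and narrow peaks were called with MACS after precipitation with an antibody against HA. Tool versions are not given in the sources used here. The deposited values used here are the start and end positions of the union of sites over all samples, with 0 columns of per-sample values, so replicates could not be compared. Starts were read as counted from 0 and are printed counted from 1. The 16 of 6444 sites outside the assembled chromosomes were left out.

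TSSs, exons and small RNAs were taken from release 21 of the GENCODE mouse annotation, which predates that of the authors, and bases from the GRCm38.p6 sequence, in which 99.9% of annotated start codons read ATG. A snoRNA was hosted if it lay inside the gene on the same strand. Islands were unions of passing 200-bp windows. Among listed genes, 3 of 13 Snhg symbols (Snhg4, Snhg7 and Snhg16) and 1 of 29 other noncoding symbols were not matched and are not counted, and 2 further listed genes are not reported here. All 10 members, their partners, listed genes with a site (the 5 widest where more than 12 had one) and the 3 widest other noncoding genes were named. The members and lists were chosen with earlier results of these data known. Alternatives varied the window, the TSSs, merging, widths and island rule. Calculations used numba 0.67.0, NumPy 2.4.6, matplotlib 3.10.9 and pandas 2.3.3 under Python 3.11.15 and were tested on simulated sites.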

Additional observations from a re-analysis of the deposited data

How the results depend on the processing

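The count of 8 members with a promoter site stayed at 7 or 8 under the 6 alternatives first listed (other windows, TSSs and widths). It fell to 4 when sites had to lie within 500 bp of the outermost start and to 3 within 300 bp, settings chosen after the data were seen. Merging sites within 1 kb of each other turned the 22 sites into 8 and the median promoter width of 320 bp into 816 bp, and 12 sites were left without Malat1, also chosen later. With the same merging, tried after the data were seen, the rank of Malat1 by sites per kb went from 1 to 179. The median offset of -44 bp became 986.5 bp from the outermost start and 216.5 bp with basic transcripts alone, so it rests on which starts are used. Extending sites by 200 bp raised the overlapped snoRNAs from 5 to 11, and allowing 5 bp around a TSS raised the members with a pyrimidine run from 6 to 10. The counts of members with an island at a site (6 under the stricter rule) and with a divergent partner (2 or 3) moved by no more than 1.5 times. No paired analysis was possible because the list has no value per sample. Depth and peak strength limit every absence above, and neither is shown in the list.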
